A study of Mus musculus with 16 samples.

Results

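The core circadian clock genes were examined in livers of male mice, measured on 16 Affymetrix whole-transcript arrays. The set was chosen by name and held 10 genes: Arntl, Clock, Npas2, Per1, Per2, Per3, Cry1, Cry2, Nr1d1 and Nr1d2. In the platform annotation 9 of the 10 had a probe set under their symbol, 1 each, and these 9 passed the filter on low values and are among the 15908 genes tested. Npas2 was not analysed here.

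The livers came from wild-type (WT) C57Bl6/J mice and from S534A mice, which are homozygous for a knock-in that turns a serine of p65 (the NF-kB subunit encoded by Rela) into alanine in all cells. The S534A line goes back to 2 embryonic stem cell clones and was backcrossed to C57Bl6/J for 5 generations. Each genotype was left untreated or treated with lipopolysaccharide (LPS), the endotoxin of Gram-negative bacteria, at 1 mg/kg, with 4 arrays in each of the 4 groups. By its title, the study asked how this exchange alters what LPS does. The mice were kept on a light-dark cycle with free access to food. Their age, the clock time of collection, the time since LPS and any vehicle injection are not given, so an effect of LPS and an effect of collection time cannot be told apart. The design text mentions the LPS dose also beside the untreated S534A group, and the sample titles were followed. Whether each array is 1 mouse is not stated, and the p-values therefore cover array-to-array spread that could be technical.

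The mammalian clock is a transcription loop that runs in nearly every cell. The proteins of Arntl (BMAL1) and Clock form a dimer that binds E-box sequences and switches on the Per, Cry and Nr1d genes. PER and CRY proteins then return to the nucleus and block that dimer, while the REV-ERB receptors encoded by Nr1d1 and Nr1d2 repress Arntl, so that Arntl and the Per genes peak at opposite times of day. In liver this loop paces sugar, lipid and drug metabolism, and meals help to set it.

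Values below are log2 levels after robust multi-array averaging (RMA), in which a difference of 1 is a doubling. Array medians lay between 6.25 and 6.42, no value was missing and no arrays were identical. The mean log2 level of 7 measured hepatocyte markers was 13.51 to 13.62 on the 16 arrays. Of these 7, Tat (0.36) and Hnf4a (0.28) rose with LPS in WT (limma adjusted p = 0.00423 and 0.0101), and none passed in S534A. The mean log2 level of 6 neutrophil markers was 5.57 to 5.65 in untreated WT and 5.66 to 5.76 in untreated S534A livers. It was 7.55 to 8.30 in LPS-treated WT and 7.62 to 7.97 in LPS-treated S534A livers. All 6 neutrophil markers rose with LPS in both genotypes, while 4 of 6 Kupffer cell, 5 of 6 sinusoidal endothelial and 5 of 6 stellate cell markers fell. Over all genes tested 14.9% rose and 29.9% fell in WT, and 14.2% rose and 31.2% fell in S534A. The lists were not uniform, since the Kupffer cell marker Marco rose by 1.28 in WT and 1.06 in S534A, and the endothelial marker Lyve1 rose by 1.35 and 1.17 (limma adjusted p from 8.19e-07 to 9.22e-06). The part of these cells in the results on clock genes was not tested, and in whole liver fewer cells of a type and less RNA per cell cannot be told apart.

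The untreated livers of both genotypes were spread widely in most clock genes. Cry2 and Nr1d1 were spread more in untreated WT (standard deviation 0.49 and 0.55) than in untreated S534A livers (0.16 and 0.25). Arntl, the activator that sets the phase of the loop, stood at 9.27, 6.40, 9.17 and 6.35 in untreated WT arrays 1 to 4 and at 6.43, 6.43, 9.71 and 8.33 in untreated S534A arrays 1 to 4. WT arrays 1 and 3 and S534A array 3 were thus high, WT arrays 2 and 4 and S534A arrays 1 and 2 were low, and S534A array 4 lay between them. The lowest and highest untreated arrays differed 7.54-fold in WT and 9.75-fold in S534A. After LPS the values were 7.12, 7.01, 7.51 and 7.16 in WT and 7.02, 8.02, 7.11 and 6.61 in S534A. The 8 LPS-treated arrays fell into the gap that the untreated arrays leave between 6.43 and 8.33.

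**Figure D1:**
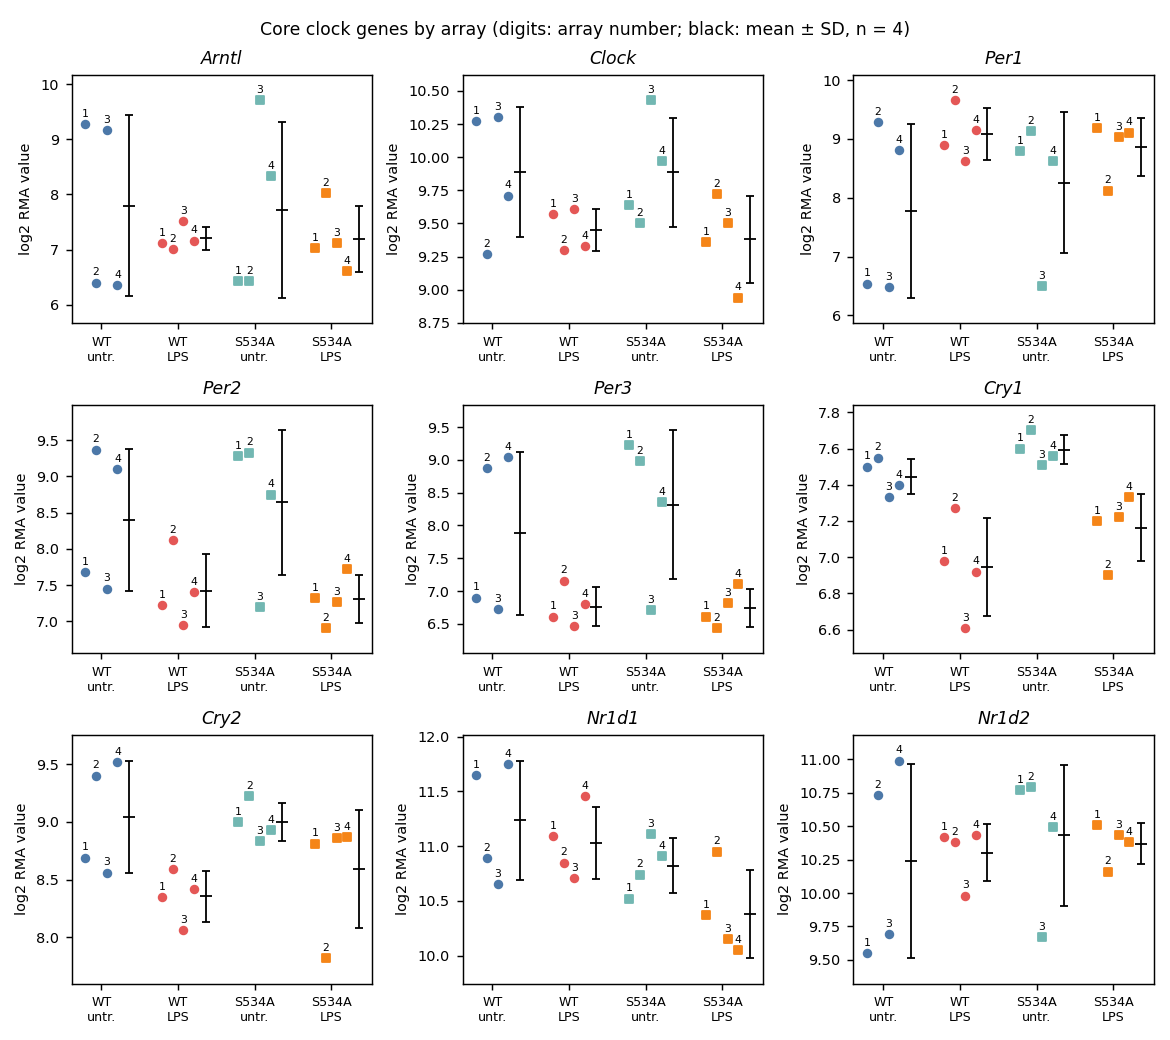
Log2 RMA value (y axis) of the 9 measured core clock genes in each array of the 4 groups (x axis), with array numbers at the points and the mean ± SD (n = 4) in black. Among untreated arrays, WT 1 and 3 and S534A 3 are high in Arntl and low in Per1, Per2 and Per3, while LPS-treated arrays lie closer together.

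Clock, the partner of Arntl, went with Arntl over a smaller range. It stood at 10.27, 9.27, 10.30 and 9.71 in untreated WT and at 9.64, 9.50, 10.43 and 9.97 in untreated S534A livers, so its 3 highest values lay in the 3 arrays that were highest in Arntl. After LPS it was 9.57, 9.30, 9.61 and 9.33 in WT and 9.36, 9.72, 9.50 and 8.94 in S534A. The groups overlapped in both genotypes.

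The Per genes ran opposite to Arntl in untreated livers. Per1, which also responds quickly to hormones and stress, was 6.54, 9.29, 6.48 and 8.81 in untreated WT and 8.79, 9.13, 6.49 and 8.62 in untreated S534A arrays. Per2, the repressor most tightly tied to the timing of the loop, was 7.68, 9.37, 7.45 and 9.10 in untreated WT and 9.28, 9.33, 7.20 and 8.75 in untreated S534A arrays. Per3, a weaker family member with a strong daily rhythm in liver, was 6.90, 8.87, 6.72 and 9.04 in untreated WT and 9.22, 8.98, 6.71 and 8.36 in untreated S534A arrays. In each of the 3 genes the lowest values were those of WT arrays 1 and 3 and S534A array 3, and S534A array 4 came next.

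Of the Per1 and Per3 promoters, the sequence bound by the Arntl-Clock dimer stood in that of Per1 and the sequence bound by the factors Dbp, Tef and Hlf, which are themselves outputs of the clock, stood in that of Per3. The 250 bases before each RefSeq start (GRCm38.p6) were searched on both strands for the E-box (CACGTG), the E'-box (CACGTT), the D-box (TTATGTAA or TTACGTAA), the cAMP response element (TGACGTCA), the core of the ROR element (TAGGTCA), which REV-ERB also binds, and the kappa-B motif of NF-kB. The E-box and E'-box differ in their last letter, so no run of letters counts as both, and a match to one motif was not barred from overlapping another. Of 32851 mouse promoters of this length 6.02% held the E-box, 3.85% the E'-box, 0.931% a D-box, 1.55% the cAMP response element, 2.23% the ROR core and 7.25% the kappa-B motif. Both sequences are shown because these 2 genes varied most between untreated arrays among the Per genes and held a match, with the matched letters in capitals. Per1 lies at chr11:69098699-69098948 on the plus strand, with its E-box 166 to 161 bases before the start. Per3 lies at chr4:151044666-151044915 on the minus strand, with D-boxes 205 to 198 and 158 to 151 bases before the start.
Per1: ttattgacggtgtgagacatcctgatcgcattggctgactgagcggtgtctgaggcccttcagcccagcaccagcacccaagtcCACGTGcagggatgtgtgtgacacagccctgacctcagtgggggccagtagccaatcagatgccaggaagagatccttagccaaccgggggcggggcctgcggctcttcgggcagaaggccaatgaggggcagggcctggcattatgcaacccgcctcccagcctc
Per3: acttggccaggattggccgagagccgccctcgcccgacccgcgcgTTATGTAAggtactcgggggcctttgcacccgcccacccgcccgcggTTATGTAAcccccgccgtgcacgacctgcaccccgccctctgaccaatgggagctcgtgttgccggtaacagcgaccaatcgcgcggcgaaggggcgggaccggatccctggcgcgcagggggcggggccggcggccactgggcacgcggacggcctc
Per2 was not searched. A second Per1 start held none of the motifs, and neither did the windows of Arntl, Nr1d2 or Npas2. Of 3 windows of Clock 1 held a kappa-B match. A match is a run of letters and not a measured site.

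After LPS the 3 Per genes parted. Per1 stood high, at 8.89, 9.66, 8.62 and 9.15 in WT and 9.18, 8.12, 9.03 and 9.11 in S534A arrays. Per2 stood low, at 7.22, 8.12, 6.95 and 7.40 in WT and 7.32, 6.91, 7.26 and 7.72 in S534A arrays. Per3 was lower still against its untreated range, at 6.61, 7.16, 6.47 and 6.80 in WT and 6.61, 6.44, 6.82 and 7.11 in S534A arrays. In the untreated arrays a high Per1 came with a high Per2 and Per3. In the 8 LPS-treated arrays Per1 (8.12 to 9.66) lay around the range of the 5 untreated arrays low or intermediate in Arntl (8.62 to 9.29), whereas Per3 lay below the lowest of those 5 (8.36) by more than 1 log2 unit. The 3 untreated arrays high in Arntl held Per3 at 6.90, 6.72 and 6.71 and Per2 at 7.68, 7.45 and 7.20. Both lay within the ranges of the LPS-treated arrays (6.44 to 7.16 and 6.91 to 8.12).

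Against the untreated groups as a whole, Per2 and Per3 fell in S534A livers and no Per gene passed the test in WT. Per2 changed by −1.34 ± 0.46 in S534A (standard error, n = 4 per group, 2.53-fold, limma adjusted p = 0.0254) and stood at −0.98 ± 0.46 in WT (adjusted p = 0.101). Per3 changed by −1.57 ± 0.53 in S534A (2.98-fold, adjusted p = 0.0217) and stood at −1.12 ± 0.53 in WT (adjusted p = 0.0992). Per1 stood at 1.30 ± 0.61 in WT (adjusted p = 0.099) and 0.60 ± 0.61 in S534A (adjusted p = 0.459). The genotypes did not differ by test in these effects, as given below. The S534A call of Per2 was lost without LPS-treated array 2 or 3 or untreated array 1, 2 or 4 (adjusted p from 0.0508 to 0.0833), and that of Per3 without LPS-treated array 2 or untreated array 1 or 2 (0.0558 to 0.0782). Without S534A LPS-treated array 2 and without untreated array 1, Cry1 was the 1 member still called in S534A. In WT, Per2 passed without untreated WT array 3 or untreated S534A array 3 (limma adjusted p = 0.0355 and 0.0406), Per3 without untreated WT array 1 or 3 or untreated S534A array 3 (0.0294 to 0.0419), and Per1 without untreated WT array 2 or 4 or untreated S534A array 3 (0.0213 to 0.0492) or with array quality weights (1.87, 0.00821). Without the 3 untreated arrays that stood apart, an alternative chosen after seeing the data and picked on these genes themselves, Per2 stood at −1.81 in WT and −1.82 in S534A, Per3 at −2.19 and −2.11 (limma adjusted p from 1.02e-06 to 9.39e-05), and Per1 at 0.03 and 0.01.

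**Figure D2:**
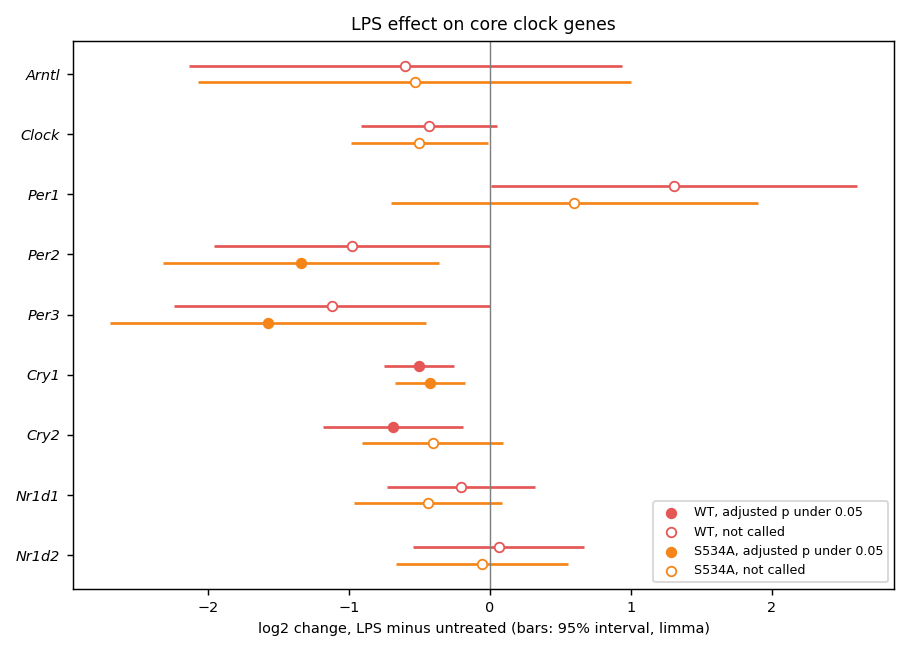
Log2 change of each measured clock gene, LPS minus untreated, in WT (upper bar of each pair) and S534A (lower bar), with the 95% interval of the limma fit. Filled points passed an adjusted p of 0.05: Cry1 and Cry2 in WT, and Per2, Per3 and Cry1 in S534A, each below 0.

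The Cry genes encode the partners of PER in the repressor complex. Cry1 varied least of the 9 members between untreated livers. Cry1 was 7.50, 7.55, 7.33 and 7.40 in untreated WT and 7.60, 7.70, 7.51 and 7.56 in untreated S534A arrays. After LPS it was 6.98, 7.27, 6.61 and 6.92 in WT and 7.20, 6.90, 7.22 and 7.33 in S534A arrays, with no overlap between treated and untreated groups in either genotype. Non-overlapping lower groups were common, at 25.6% of all genes in WT and 31.7% in S534A. Cry1 fell by 0.50 ± 0.12 in WT and by 0.43 ± 0.12 in S534A livers (limma adjusted p = 0.00206 and 0.00632). Without any 1 array the limma adjusted p was up to 0.00794 in WT and 0.0279 in S534A, and a minimum of 1.5-fold was the 1 setting tried that ended the call in both genotypes.

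Cry2, the second cryptochrome, was 8.69, 9.40, 8.56 and 9.52 in untreated WT and 9.0, 9.22, 8.83 and 8.93 in untreated S534A arrays. After LPS it was 8.35, 8.59, 8.06 and 8.42 in WT and 8.81, 7.82, 8.86 and 8.87 in S534A arrays. LPS-treated S534A array 2 stood alone at the low end, and in both genotypes the groups overlapped. The change in WT was −0.69 ± 0.235 (limma adjusted p = 0.0244) and S534A livers stood at −0.41 ± 0.235 (0.176). Array quality weights ended the WT call (−0.47, limma adjusted p = 0.0954), as did leaving out untreated array 2 or 4 or LPS-treated array 3 (0.0773 to 0.0879).

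The Cry1 promoter is shown because it is the member whose fall passed in both genotypes and because it held both kinds of E-box. It lies at chr10:85185055-85185304 on the minus strand (RefSeq, GRCm38.p6), with the E'-box (read here as AACGTG on the gene's strand) 79 to 74 and the E-box 60 to 55 bases before the start, both in capitals.
Cry1: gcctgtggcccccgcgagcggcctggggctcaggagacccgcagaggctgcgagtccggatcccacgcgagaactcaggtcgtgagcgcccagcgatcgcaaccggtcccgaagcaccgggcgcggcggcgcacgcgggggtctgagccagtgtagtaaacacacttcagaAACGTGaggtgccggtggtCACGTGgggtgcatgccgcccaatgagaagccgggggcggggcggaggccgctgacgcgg
The window of Cry2 held an E'-box and a kappa-B match, and that of Nr1d1 an E'-box.

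The REV-ERB genes, whose products close the second loop by repressing Arntl, did not pass the test with LPS in either genotype. Nr1d2 followed the Per genes in untreated livers, with 9.55, 10.73, 9.69 and 10.99 in WT and 10.77, 10.79, 9.67 and 10.49 in S534A arrays. After LPS it lay between those extremes, at 10.42, 10.38, 9.98 and 10.43 in WT and 10.51, 10.16, 10.43 and 10.38 in S534A arrays. Its change was 0.06 ± 0.29 in WT and −0.06 ± 0.29 in S534A (limma adjusted p = 0.895 and 0.89). Without the 3 untreated arrays that stood apart it was −0.56 in WT (limma adjusted p = 0.00543) and −0.31 in S534A (0.0569).

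Nr1d1 did not follow the order of the other members. It was 11.65, 10.89, 10.65 and 11.75 in untreated WT arrays, so that WT arrays 1 and 3, alike in Arntl and the Per genes, lay 1 log2 unit apart. It was 10.52, 10.74, 11.11 and 10.91 in untreated S534A arrays. After LPS it was 11.09, 10.85, 10.71 and 11.46 in WT and 10.37, 10.95, 10.15 and 10.05 in S534A arrays. The LPS change was −0.21 ± 0.25 in WT and −0.44 ± 0.25 in S534A livers (limma adjusted p = 0.561 and 0.165), and array quality weights brought the latter past the threshold (−0.54, 0.0329).

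In all, 2 of the 9 measured members passed the test after LPS in WT, Cry1 and Cry2, and 3 in S534A, Per2, Per3 and Cry1, each lower than untreated. Over all genes tested 44.9% passed in WT, 29.9% lower and 14.9% higher, and in S534A 45.4%, 31.2% lower and 14.2% higher, so 2 of 9 and 3 of 9 are near the shares of all genes that fell. The median change of the 9 members was −0.50 in WT and −0.44 in S534A, against −0.05 and −0.03 for all genes. Arntl stood at −0.60 ± 0.72 in WT and −0.53 ± 0.72 in S534A livers (limma adjusted p = 0.565 and 0.581). Clock stood at −0.43 ± 0.23 (adjusted p = 0.145) and −0.50 ± 0.23 (adjusted p = 0.0864). Clock passed in WT with array quality weights (−0.61, limma adjusted p = 0.0336) or without untreated WT array 2 (−0.64, 0.0244), and in S534A with median-centred arrays (−0.60, 0.0323), with quality weights (−0.54, 0.0182) or without untreated S534A array 2 (−0.63, 0.0453).

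Most members were spread more between untreated than between LPS-treated arrays. The standard deviation within groups, pooled over the genotypes, was 1.62 for Arntl in untreated and 0.45 in LPS-treated arrays, a ratio of 3.60. It was 1.35 and 0.47 for Per1, 0.98 and 0.42 for Per2, 1.19 and 0.29 for Per3, 0.63 and 0.18 for Nr1d2, and 0.45 and 0.26 for Clock. Over all genes the median was 0.136 in untreated and 0.137 in LPS-treated arrays. The pooled values were about equal for Cry2 (0.36 and 0.39) and Nr1d1 (0.43 and 0.37), but the genotypes went opposite ways. In WT, Cry2 had 0.49 untreated and 0.22 after LPS, and Nr1d1 had 0.55 and 0.33. In S534A, Cry2 had 0.16 and 0.51, and Nr1d1 had 0.25 and 0.40. Cry1 was spread less in untreated than in LPS-treated arrays (0.09 and 0.23). These ratios are descriptions and were not tested.

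**Figure D3:**
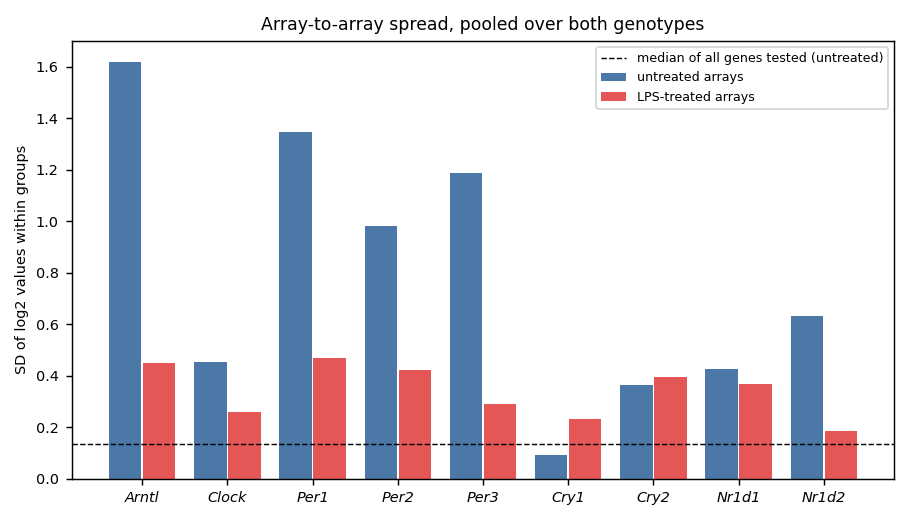
Standard deviation of log2 values within groups (y axis), pooled over WT and S534A, for the 9 measured clock genes in untreated and LPS-treated arrays; the dashed line is the median of all genes in untreated arrays. Arntl, the Per genes and Nr1d2 show bars at least 2.33 times as high in untreated as in LPS-treated arrays, and Cry1 shows the reverse.

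Measured by the residual standard deviation of the fit, Arntl ranked 8, Per1 12, Per3 20 and Per2 37 among the 15908 genes, counted from the most variable. Nr1d2 ranked 181, Nr1d1 308, Cry2 354, Clock 391 and Cry1 4797. By the pooled standard deviation of the LPS-treated arrays alone, Per1 ranked 96, Arntl 111, Per2 145, Cry2 194 and Nr1d1 250. Per3 ranked 661 there, Clock 1095, Cry1 1709 and Nr1d2 3860.

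Because the untreated arrays fall into separate clusters, relations with Arntl were tested over the 8 LPS-treated arrays alone, on values minus their group mean, with exact two-sided permutation within groups (576 arrangements) and Benjamini-Hochberg adjustment over the 8 relations. An unadjusted exact p under 0.05 was reached by 6 of the 8 members, both by Pearson and by Spearman correlation, against 6.48% and 11.3% of the 15907 genes other than Arntl. Per1 fell as Arntl rose (Pearson r = −0.85, exact p = 0.0104, adjusted 0.0278; Spearman rho = −0.90, exact p = 0.0191, adjusted 0.0278), as did Cry2 (r = −0.94, exact p = 0.00868, adjusted 0.0278; rho = −0.90, exact p = 0.0191, adjusted 0.0278) and Cry1 (r = −0.80, exact p = 0.00347, adjusted 0.0278; rho = −0.93, exact p = 0.00521, adjusted 0.0278). Without the 2 arrays farthest from the median of Arntl, LPS-treated S534A arrays 2 and 4, r was −0.86 for Per1, −0.92 for Cry2 and −0.91 for Cry1. The group means subtracted were still those of all 4 arrays, so r without the 2 arrays is not free of them. Per2 (r = −0.73, exact p = 0.026, adjusted 0.05; rho = −0.88, exact p = 0.00868, adjusted 0.0278) and Per3 (r = −0.77, exact p = 0.0312, adjusted 0.05; rho = −0.86, exact p = 0.0191, adjusted 0.0278) lay at the threshold, with r of −0.75 and −0.65 without the 2 arrays.

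Clock rose with Arntl by rank (rho = 0.86, exact p = 0.0208, adjusted 0.0278) and by value (r = 0.87, exact p = 0.0434, adjusted 0.0579). Its r was lower, at 0.58, without the 2 farthest arrays, which still enter the group means. How far the relation rests on those arrays is therefore not settled by this value. Nr1d2 did not pass (r = −0.67, exact p = 0.0556, adjusted 0.0635; rho = −0.33, exact p = 0.469, adjusted 0.469), with r of −0.92 without the 2 arrays. Nr1d1 did not pass either (r = 0.60, exact p = 0.201, adjusted 0.201; rho = 0.57, exact p = 0.191, adjusted 0.218), and r turned to −0.31 without them.

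The slope of Per1 on Arntl, in log2 units of one per log2 unit of the other, was −0.78 ± 0.12 over the 8 untreated and −0.88 ± 0.25 over the 8 LPS-treated arrays. That of Per2 was −0.59 ± 0.07 and −0.68 ± 0.29, and that of Per3 −0.72 ± 0.07 and −0.50 ± 0.19. Cry2 had a slope of −0.19 ± 0.05 in untreated and −0.82 ± 0.13 in LPS-treated arrays, and Cry1 of −0.03 ± 0.02 and −0.41 ± 0.14. The untreated arrays fall into separate clusters in Arntl, so their slopes rest mainly on the contrast between clusters. Their standard errors are descriptions and are not on a par with those of the LPS-treated arrays. The differences between slopes were not tested.

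**Figure D4:**
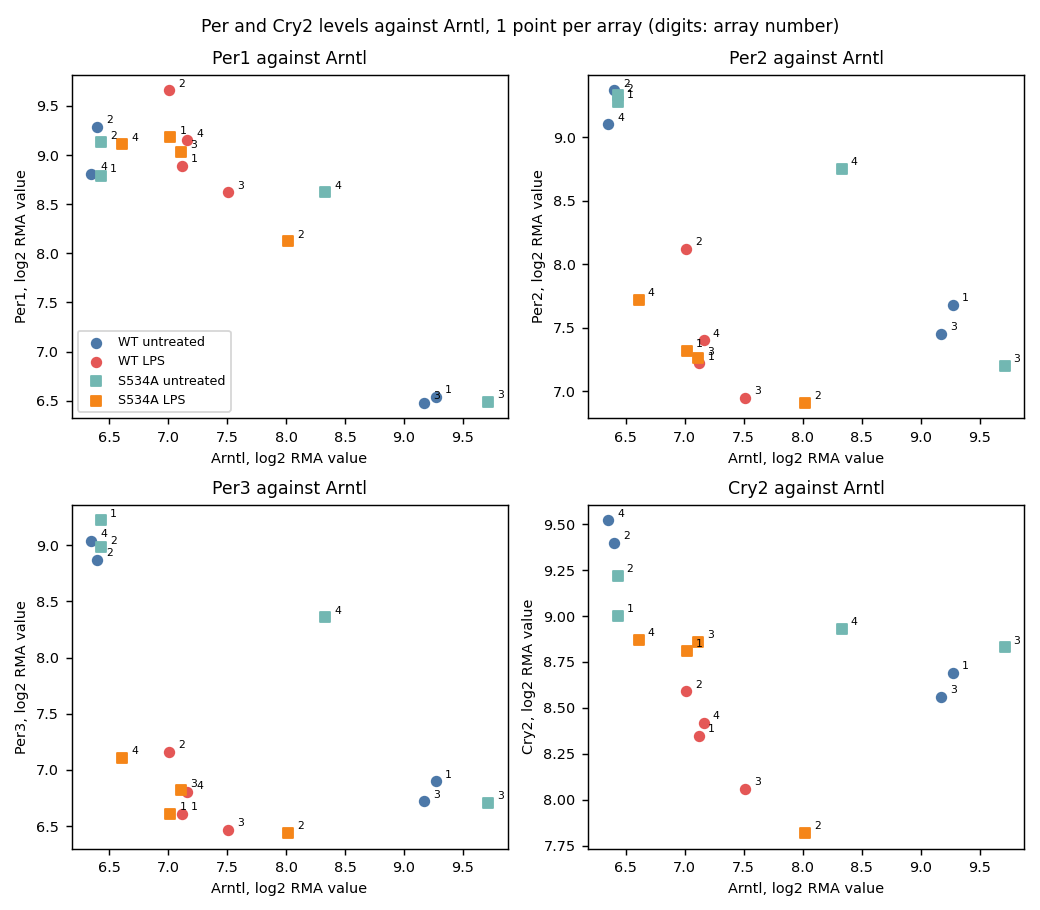
Log2 RMA level of Per1, Per2, Per3 and Cry2 (y axes) against Arntl (x axes), 1 point per array with its number. LPS-treated arrays hold Per1 at 8.12 to 9.66. For Per2 and Per3 they lie below the untreated arrays with Arntl up to 8.33. Those untreated arrays hold Per3 at 8.36 to 9.22, and LPS-treated arrays hold it at 6.44 to 7.16. The untreated arrays high in Arntl (WT 1 and 3 and S534A 3) hold Per2 and Per3 within the ranges of the LPS-treated arrays. No untreated array lies between 6.43 and 8.33 in Arntl, where the LPS-treated arrays lie, so none matches them in Arntl.

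When the Arntl level of each array was added to the limma fit as a covariate, which was chosen after the data were seen, the LPS effect on Per2 and Per3 passed in both genotypes. At equal Arntl, Per3 changed by −1.54 ± 0.15 in WT (2.91-fold, limma adjusted p = 3.19e-07) and by −1.95 ± 0.15 in S534A (3.86-fold, adjusted p = 1.67e-08). Per2 changed by −1.33 ± 0.18 in WT (adjusted p = 9.02e-06) and by −1.66 ± 0.18 in S534A (adjusted p = 7.23e-07). Per1 went the other way in WT, rising by 0.83 ± 0.23 (adjusted p = 0.00708), and stood at 0.18 ± 0.23 in S534A (adjusted p = 0.55). Cry1 and Cry2 fell in both genotypes, Clock fell in S534A (−0.35 ± 0.11, adjusted p = 0.0117) and stood at −0.26 ± 0.11 in WT (adjusted p = 0.0539), and neither REV-ERB gene passed. Of the 8 members in this fit 5 passed in each genotype, against 47.9% of all genes in WT (16% higher, 31.9% lower) and 50.3% in S534A (16.8% higher, 33.5% lower).

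The Per2 and Per3 calls of that fit held without any 1 array, with changes from −1.52 to −1.23 for Per2 in WT, −1.75 to −1.51 in S534A, −1.63 to −1.47 for Per3 in WT and −2.06 to −1.80 in S534A. Per1 in WT stayed past the threshold in these fits (0.69 to 1.02, limma adjusted p up to 0.0289) but, without the covariate and without the 3 untreated arrays that stood apart, was 0.03 (adjusted p = 0.94), so its rise was not seen under both alternatives. In S534A Per1 passed in 1 of the 16 fits. Clock and Cry2 in S534A were each lost in 1 of 16 (adjusted p = 0.0576 and 0.0562), and Clock in WT passed in 3 of 16. The fit assumes 1 straight line for all groups. No untreated array lies between 6.43 and 8.33 in Arntl, where the LPS-treated arrays lie, and the slopes of the Cry genes differed in value between untreated and LPS-treated arrays.

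The S534A and WT livers did not differ in any measured clock gene by an adjusted p of 0.05. The fit shares 1 estimate of spread over the 4 groups. For members spread more when untreated, this enlarges the standard error of the comparison after LPS. Arntl had a standard error of 0.72 there, with a pooled standard deviation of 0.45 after LPS. The count below stayed at 0 when only the groups compared were fitted. After LPS limma called 0 of the 9 members between genotypes and 0% of all genes, both at an adjusted p under 0.05. The share of all genes at an unadjusted p under 0.05 is not given here. An unadjusted p under 0.05 was reached by 1 member, at rank 146 of the 15908 genes by p. That member was Nr1d1, which lay 0.65 ± 0.25 lower in S534A (95% interval −1.17 to −0.12, unadjusted p = 0.0183, adjusted p = 1). In 3 of 4 LPS-treated S534A arrays, at 10.05, 10.15 and 10.37, it lay below the lowest LPS-treated WT array at 10.71, and the fourth, at 10.95, lay within the WT range. In untreated livers limma called 0 of 9 at an adjusted p under 0.05, against 0.0126% of all genes. At an unadjusted p under 0.05 there were 0 members, without a share of all genes to set beside them. Nr1d1 there stood at −0.42 ± 0.25 (adjusted p = 0.68).

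The LPS effects of the genotypes could not be told apart either, with 0 of the 9 members and 0% of all genes called by limma for the interaction. At an unadjusted p under 0.05 there were 0 members, again without a share of all genes. As the S534A change less the WT change, the interaction was −0.36 ± 0.65 for Per2 (95% interval −1.75 to 1.02), −0.45 ± 0.75 for Per3 (−2.03 to 1.13) and −0.70 ± 0.87 for Per1 (−2.54 to 1.13). It was 0.28 ± 0.33 for Cry2 (−0.42 to 0.98) and 0.07 ± 0.17 for Cry1 (−0.28 to 0.42). These intervals are wide for the Per genes, so a difference in either direction of more than 2-fold lies within them.

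Other genes of the clock network were counted on 3 lists, which were not tested as sets. Over all genes tested 44.9% passed after LPS in WT and 45.4% in S534A, the shares to set beside these counts. Of 8 measured loop and output factors 1 rose and 2 fell after LPS in WT, and 1 rose and 3 fell in S534A. Nfil3, a repressor that competes for D-boxes, rose by 2.07 ± 0.41 in WT (limma adjusted p = 0.000487) and 1.98 ± 0.41 in S534A. Rora, which activates Arntl through the sites that REV-ERB binds, fell by 0.95 ± 0.08 and 1.20 ± 0.08 (adjusted p = 8.16e-08 and 4.44e-09). Its untreated arrays lay between 9.93 and 10.29 and its LPS-treated arrays between 8.76 and 9.16, so Rora did not share the spread of Arntl. Hlf, a D-box activator, fell by 0.86 ± 0.20 and 0.99 ± 0.20. Tef, of the same family, fell in S534A (−1.23 ± 0.47, adjusted p = 0.0408), a call lost without any 1 of the S534A arrays other than untreated array 3, without LPS-treated WT array 1, with no filter and with the trended and robust fit (0.0506 to 0.121 where lost).

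Of 9 measured modifiers of clock proteins 3 rose and 3 fell in WT, and 1 rose and 4 fell in S534A. The ubiquitin ligase subunits that mark PER proteins for breakdown moved apart: Btrc fell by 0.87 ± 0.07 in WT and 0.91 ± 0.07 in S534A, and its paralogue Fbxw11 rose by 0.80 ± 0.08 and 0.75 ± 0.08 (limma adjusted p = 1.81e-08, 9.16e-09, 5.13e-07 and 9.30e-07). Fbxl21, a ligase subunit that acts on CRY proteins, fell by 0.87 ± 0.10 and 0.98 ± 0.10. The kinase Csnk1a1 rose by 0.29 ± 0.07 in WT (adjusted p = 0.00132), and stood at 0.03 in S534A (0.78). The kinase Gsk3b fell by 0.36 ± 0.10 in WT and 0.66 ± 0.10 in S534A livers (limma adjusted p = 0.00888 and 5.64e-05). Neither kinase was called for the interaction (adjusted p = 0.951 for both). Of 9 measured clock-controlled genes of liver 1 rose and 2 fell in WT, and 1 rose and 1 fell in S534A. Nampt, the rate-limiting enzyme of NAD salvage, rose by 2.12 ± 0.24 and 1.74 ± 0.24 (adjusted p = 1.62e-06 and 1.43e-05).

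The genes whose array-to-array pattern was most like that of Arntl were Tubb2a, Slc30a10, Clpx, Slc45a3 and Pnkd, by Pearson correlation of values minus their group mean over the 16 arrays (r from 0.966 to 0.989). The most opposite were Max, Clcn2, Bnip3, Itprid2 and Wee1 (r from −0.971 to −0.954). Members were left out of both of these lists. The 3 untreated arrays that are high in Arntl weigh most in these values, which describe the same arrays and carry no test. Among the members Per3 (r = −0.963) ranked 2 from the opposite end of the 15908 genes, and Clock (r = 0.91) ranked 48 from the top, with Arntl itself counted. Max, the DNA-binding partner of MYC, rose with LPS by 1.35 in WT and 1.51 in S534A (limma adjusted p = 1.41e-05 and 4.44e-06), whereas Tubb2a, a tubulin, stood at −0.92 and −0.67 (adjusted p = 0.236 and 0.385).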

How the data were processed

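The values are those the authors deposited: log2 RMA values per probe set (RMA per the submitters' processing notes, software not given). Signal over background could not be judged from them, and precision is limited by the number of arrays. Of 35556 probe sets 21789 had 1 gene symbol in the platform annotation, 1621 several and 12146 none; 21698 single symbols matched RefSeq (GRCm38.p6) by gene identifier and 0 differed. Probe sets above the 30th percentile of their array in at least 4 of 16 arrays were kept (26037), and the probe set of highest mean stood for a gene, which left 15908 genes. Groups came from the sample titles.

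Genes were fitted with limma 3.58.1 in R 4.3.3 (4 group means, 16 arrays, 12 residual degrees of freedom, two-sided, Benjamini-Hochberg adjustment over 15908 genes, threshold 0.05). The fit was tested on simulated data with independent normal noise of the same standard deviation in every group. That setting does not cover genes spread more between untreated arrays, as most members were. Members and lists were chosen with earlier results of these data known. Named beside the members were up to 4 genes of lowest p past the threshold per list and comparison, and the 5 genes most like and most opposite Arntl. The latter left out the members and predicted-gene, clone and small RNA symbols. The text gives a selection. The lists hold 10 loop and output factors, 10 modifiers and 10 clock-controlled genes, and markers of hepatocytes, Kupffer cells, neutrophils, sinusoidal endothelium, stellate cells and lymphocytes (2 of 4 measured fell in each genotype). Relations with Arntl were planned over 16 arrays and run over the LPS-treated 8 once the untreated arrays were seen to separate. Promoters were searched upstream of the start only, short of the planned bases after it. Figures used Python 3.11.15 and matplotlib 3.10.9.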

Additional observations from a re-analysis of the deposited data

Results flagged for a closer look

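In 3 of the 36 sets of 4 arrays (9 genes in 4 groups) the lowest array stood far from the other 3. Per1 was 8.12 and Cry2 7.82 in LPS-treated S534A array 2, which also held the highest Arntl of the LPS-treated arrays (8.02). Nr1d2 was 9.98 in LPS-treated WT array 3, which held the highest Arntl of LPS-treated WT arrays (7.51). Chance gives about 1 such set in 20.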

How the results depend on the processing

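The count of members called after LPS in WT (2 as reported) was 1 at an adjusted p threshold of 0.01 and 1 with a 1.5-fold minimum, and that in S534A (3) was 1 at the 0.01 threshold and 5 with array quality weights. With the Arntl level as covariate both counts were 5. Leaving out 1 array gave 1 to 5 in WT and 1 to 3 in S534A, the WT count being 4 without untreated WT array 3, 5 without untreated S534A array 3 and 1 without LPS-treated WT array 3, and the S534A count 1 without LPS-treated S534A array 2 or untreated S534A array 1. Without the 3 untreated arrays highest in Arntl (WT 1 and 3, S534A 3), which were picked on the members themselves, the WT count was 5 and that in S534A stayed at 3. There Per3 stood at −2.19 in WT and −2.11 in S534A, Per1 at 0.03 and 0.01, and Arntl at 0.82 and 0.13, and Nr1d2 in WT turned to −0.56 (limma adjusted p = 0.00543); the cause was not tested. The counts for the 3 other comparisons were 0 under the settings tried. The S534A count was 2 with the 1.5-fold minimum. With the replicate number as a block the WT count was 3, with Per2 added (limma adjusted p = 0.0424); same-numbered arrays correlated by −0.49 to 0.59 in their deviations from the group means, over 0.1 in 7 of 16 pairs, so the numbers were not taken to pair the samples. Centring arrays on their median shifted the median over all genes in WT from −0.05 to −0.16 and the share of calls that rose from 33.3% to 22.1% (S534A −0.03 to −0.13, 31.3% to 21.5%); Cry1 stayed lower.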
